A study of Mus musculus with 2 samples.

Results

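The endothelin, nitric oxide and hydrogen sulfide genes Edn1, Edn3, Ece1, Ednra, Ednrb, Nos3, Nos1, Cbs and Cth were followed in nuclei of mouse mesenteric perivascular adipose tissue, the fat that surrounds the arteries of the gut. Both sample labels name this depot, while the title of the series speaks of a thoracic and an abdominal depot, and the sample labels were followed here. The 9 genes were picked by name, as the makers and receptors of 3 short-lived vascular signals, out of 32285 genes in the count tables. All 9 were found, and each had at least 1 unique molecular identifier (UMI, 1 counted transcript copy) in both libraries.

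Endothelial cells release endothelin, a peptide that is cut to its active form by a membrane protease, and they also make nitric oxide, a gas. Endothelin constricts arteries through the A receptor on mural cells, while nitric oxide relaxes them by raising cyclic GMP in smooth muscle. Hydrogen sulfide, made from cysteine and homocysteine by enzymes of the transsulfuration pathway, is a further relaxing gas that has been studied in perivascular fat.

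The 2 libraries came from mice 11 weeks old. The library labelled Prdm16 cKO has the genotype Prdm16flox with AdopiQCre, a Cre driven by the adiponectin promoter of adipocytes, and the flox control has Prdm16flox without Cre, so both carry the floxed allele. Nuclei were taken from frozen, microdissected fat and counted with a 10x 3' kit. The labels do not say how many mice went into a library. Each genotype has 1 library, so genotype and library cannot be told apart, no test was possible, and every interval given is a 95% interval that covers counting error only.

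After filtering, the cKO-labelled library held 7374 nuclei with 62275986 UMIs and the control 10532 nuclei with 92779065 UMIs, at medians of 6521 UMIs per cKO-labelled and 7035 UMIs per control nucleus. Clusters were built without the 9 genes and named from marker lists, which gave 15 classes large enough for a level (20 nuclei or more per library) and among them 10 large enough to compare (100 or more). Adipocyte-like nuclei were the largest class, with 2939 cKO-labelled and 4408 control nuclei. Unnamed nuclei made up 14.1% of the cKO-labelled library and 5.91% of the control, and 28 cell barcodes occurred in both libraries. Pancreatic acinar-like nuclei, from a neighbouring organ, numbered 180 in the cKO-labelled library and 87 in the control. Adipocyte markers were detected in every class. In T cell-like nuclei the 8 of them together reached 50.1% of the adipocyte level in the cKO-labelled library and 38.6% in the control, in B cell-like nuclei 46.2% (cKO-labelled) and 28.4% (control), and all 8 were detected in both classes.

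Levels are given as CPM, the UMIs of a gene scaled by all UMIs of the class in that library. In adipocyte-like nuclei Prdm16 itself was not at a lower level with Cre, at 22.3 CPM (20.9 to 23.8) in the cKO-labelled library and 16.6 CPM (15.6 to 17.7) in the control. Which exon is floxed is not in the labels, and 3' counts need not cover the deleted part, so these counts check nothing. Prdm16 in vascular endothelial-like nuclei was at 199 CPM in the cKO-labelled library and 376 CPM in the control, a log2 ratio of -0.92 (-1.09 to -0.74). Adipocyte markers in those nuclei stood at 46.5% (cKO-labelled) and 27.3% (control) of their adipocyte level, and the mix of endothelial clusters differed between the libraries. The part of either in this ratio was not tested.

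The sequences before the RefSeq start of the endothelin ligand gene and its 2 receptor genes are shown because these 3 genes had their highest levels in different classes of nuclei: Edn1 in endothelial, Ednra in pericyte-like and Ednrb in macrophage-like nuclei. They are RefSeq windows of build GRCm38.p6, up to 250 bases before each gene's RefSeq start, read 5′ to 3′ on the gene's strand. They lie at chr13:42301226-42301475 (plus strand) for Edn1, chr8:77724465-77724702 (minus strand, 238 bases, with 12 bases that the GENCODE annotation puts in an exon left out) for Ednra and chr14:103843702-103843951 (minus strand) for Ednrb. GENCODE starts Ednrb farther upstream, so the whole Ednrb window lies within its GENCODE span, in 0 of its exons, while the other windows lie outside the span of their gene. Capitals mark matches to the motifs searched, on either strand.
Edn1: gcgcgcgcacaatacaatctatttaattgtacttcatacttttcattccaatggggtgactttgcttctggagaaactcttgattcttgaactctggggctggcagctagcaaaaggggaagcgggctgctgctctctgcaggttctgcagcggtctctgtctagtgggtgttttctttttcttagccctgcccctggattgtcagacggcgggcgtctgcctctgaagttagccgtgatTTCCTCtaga
Ednra: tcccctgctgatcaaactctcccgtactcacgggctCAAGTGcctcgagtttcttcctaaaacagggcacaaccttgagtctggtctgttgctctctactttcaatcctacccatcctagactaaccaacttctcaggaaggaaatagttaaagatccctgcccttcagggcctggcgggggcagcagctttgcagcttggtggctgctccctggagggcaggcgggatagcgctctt
Ednrb: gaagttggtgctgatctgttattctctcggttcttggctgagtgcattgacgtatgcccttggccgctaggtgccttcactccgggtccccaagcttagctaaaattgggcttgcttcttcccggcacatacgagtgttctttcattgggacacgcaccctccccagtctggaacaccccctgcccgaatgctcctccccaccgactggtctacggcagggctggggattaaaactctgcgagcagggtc
The Edn1 window held 1 match, to the PU.1 or ETS motif GAGGAA on the reverse strand, 10 bases from the window's end. The Ednra window held 1 match to the E-box CANNTG, and the Ednrb window held none. Of all 32851 windows in the table, 23.3% held GAGGAA and 66.2% held CANNTG, so both matches are common. The other motifs searched were the TATA box TATAAA (12.4% of windows), GATAA (22.6%), TGANTCA (6.75%), ACGTG (16.6%) and GGGCGG (32.7%), and these letters were not in the 3 windows. The motifs CANNTG and ACGTG can share letters, as in CACGTG, and did not here. Of the 9 genes, 7 had a window in the table.

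**Figure D1:**
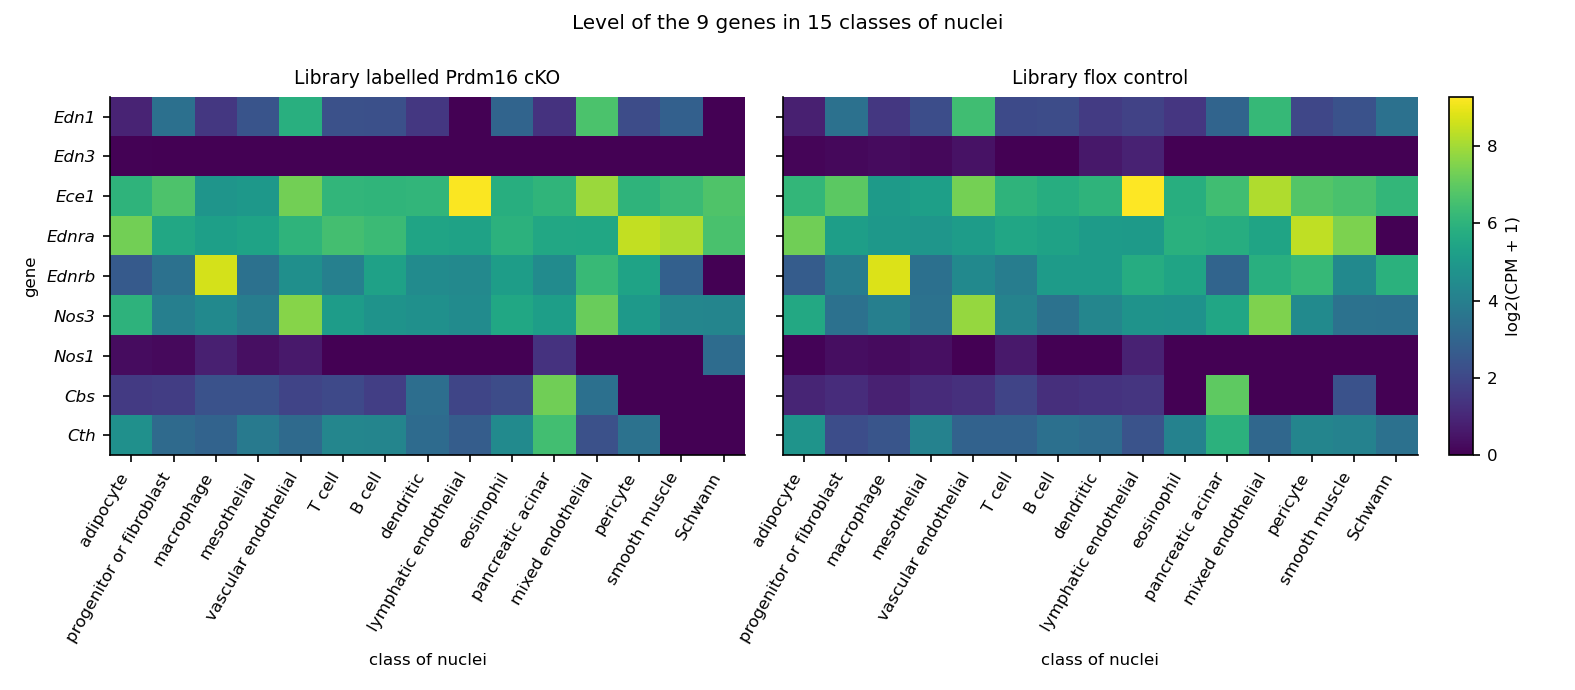
Level of each of the 9 genes (colour: log2 of CPM + 1, from summed UMIs) in each class of nuclei, in the cKO-labelled library and the flox control. Edn1 and Nos3 peaked in endothelial classes, Ece1 in lymphatic endothelial-like nuclei, Ednra in pericyte-like nuclei, Ednrb in macrophage-like nuclei, and Cbs and Cth in pancreatic acinar-like nuclei, in both libraries.

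Edn1, which encodes the main endothelin ligand of blood vessels (mm10 chromosome 13, 42301476 to 42307990, plus strand), was an endothelial transcript in both libraries. Vascular endothelial-like nuclei held 103 Edn1 UMIs, or 56.2 CPM (45.8 to 68.1), in the cKO-labelled library, against 237 UMIs, or 85.7 CPM (75.2 to 97.4), in the control. The intervals did not overlap, and the log2 ratio was -0.61 (-0.96 to -0.27). Within this class, clusters differed in Edn1 more than the libraries did. Cluster 22, led by the arterial genes Gja5, Sema3g and Sox17, had 128 CPM (93.4 to 170.2) in the cKO-labelled library and 123 CPM (102 to 148) in the control. Cluster 13, led by the capillary genes Gpihbp1, Rbp7 and Cd300lg, had 21.8 CPM (13.8 to 32.8) in the cKO-labelled library and 24.5 CPM (16.2 to 35.7) in the control. In neither cluster was a difference between the libraries detectable at this depth, with log2 ratios of 0.05 (-0.48 to 0.55) and -0.17 (-1.04 to 0.69). Cluster 20, led by Vwf and Lepr, was the one with an interval below 0, at 80.9 CPM (56.1 to 113) in the cKO-labelled library and 130.1 CPM (105 to 159) in the control, a log2 ratio of -0.68 (-1.30 to -0.10).

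The makeup of the class also differed between the libraries. The low-Edn1 cluster 13 held 60.5% of cKO-labelled and 52.1% of control vascular endothelial-like nuclei, cluster 20 held 22.3% of cKO-labelled and 24.5% of control, and the high-Edn1 cluster 22 held 17.2% of cKO-labelled and 23.4% of control. The adipocyte markers in the class reached 46.5% of what adipocyte-like nuclei had in the cKO-labelled library and 27.3% in the control. The adipocyte profile, which had little Edn1 (0.897 CPM cKO-labelled, 0.758 CPM control), was then subtracted on that scale. The rest was scaled up to the full class total. On this measure Edn1 was at 104 CPM in cKO-labelled and 118 CPM in control vascular endothelial-like nuclei, a log2 ratio of -0.17. This shift came almost wholly from the scaling up. The part of makeup or of adipocyte RNA in the Edn1 difference of the class was not tested. Edn1 was detected in 47 of 291 nuclei (16.2%) of the cKO-labelled library and 111 of 445 (24.9%) of the control. After thinning each nucleus to 1000 UMIs, the shares were 4.32% in the cKO-labelled library and 6.11% in the control. Of T cell-like nuclei, 2.21% of the cKO-labelled library and 1.59% of the control had an Edn1 UMI, and after thinning 0% (cKO-labelled) and 0.265% (control). Median depths in vascular endothelial-like nuclei were 4194 UMIs (cKO-labelled) and 4995 UMIs (control), and in T cell-like nuclei 3751 UMIs (cKO-labelled) and 3641 UMIs (control). The 5 nuclei with the most Edn1 held 31.1% of its UMIs in the cKO-labelled class and 17.7% in the control class.

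Beyond that class, the highest Edn1 levels lay in another endothelial cluster. It carried both vascular and lymphatic endothelial markers and was kept apart as mixed endothelial. It had 98.3 CPM (73.0 to 129.6) over 77 nuclei in the cKO-labelled library and 72.1 CPM (57.6 to 89.1) over 141 nuclei in the control. In the cKO-labelled library 1 nucleus held 18 of its 50 UMIs, and without that nucleus the level was 67.3 CPM. That was still above the 56.2 CPM of vascular endothelial-like nuclei, but within their interval (45.8 to 68.1). In the control its interval overlapped that of vascular endothelial-like nuclei. Progenitor or fibroblast-like nuclei had 9.62 CPM in the cKO-labelled library and 9.99 CPM in the control. Most of it came from cluster 11, led by Adamts16, Gfpt2 and Has2, at 21.5 CPM in the cKO-labelled library and 24.1 CPM in the control. In lymphatic endothelial-like nuclei no Edn1 UMI was seen in the cKO-labelled library (0 of 114 nuclei, which allows a share of nuclei with a UMI of up to 2.63%), and 3 UMIs were seen in the control. Adipocyte-like nuclei had 35 UMIs (0.897 CPM) in the cKO-labelled library and 44 UMIs (0.758 CPM) in the control. Edn3, which encodes the endothelin that acts mainly through the B receptor (chromosome 2, 174760619 to 174784042, plus strand), had 2 UMIs in the whole cKO-labelled library and 16 in the control, too few to place it in a class.

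Ece1, the protease that cuts endothelin precursors to the active peptide (chromosome 4, 137862237 to 137965229, plus strand), was highest in lymphatic endothelial-like nuclei, at 597 CPM (541 to 656) in the cKO-labelled library and 615 CPM (571 to 661) in the control. It was detected in 90.4% of these nuclei in the cKO-labelled library and 88.3% in the control, and after thinning in 40.2% (cKO-labelled) and 42.1% (control). Of T cell-like nuclei, 23.9% (cKO-labelled) and 21.2% (control) had a UMI, and after thinning 9.38% (cKO-labelled) and 5.31% (control). Lymphatic endothelial-like nuclei had median depths of 5203 UMIs (cKO-labelled) and 4993 UMIs (control). Mixed endothelial nuclei followed at 234 CPM (194 to 280) in the cKO-labelled library and 289 CPM (259 to 321) in the control. Vascular endothelial-like nuclei had 156 CPM (138 to 175) in the cKO-labelled library and 161 CPM (146 to 176) in the control. No 2 of these intervals overlapped within a library, so the order of the 3 endothelial classes was the same in both. The class with the most Ece1 thus had almost no Edn1. Ece1 was also spread widely, with 64.2 CPM (cKO-labelled) and 68.8 CPM (control) in adipocyte-like nuclei and 102 CPM (cKO-labelled) and 119.8 CPM (control) in progenitor or fibroblast-like nuclei. Its log2 ratio stayed between -0.30 and 0.30 in all 10 classes compared.

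Ednra, the A receptor that signals contraction (chromosome 8, 77663031 to 77724464, minus strand), was highest in pericyte-like and then smooth muscle-like nuclei. Pericyte-like nuclei had 343 CPM (279.7 to 417; 45 nuclei) in the cKO-labelled library and 328 CPM (269.6 to 395; 75 nuclei) in the control. Smooth muscle-like nuclei had 279.8 CPM (205 to 373; 34 nuclei) in the cKO-labelled library and 173 CPM (138 to 214; 64 nuclei) in the control. The smooth muscle-like cluster was led by Myh11 and Actg2, an actin of visceral muscle, and intestinal epithelial-like nuclei were also present, and whether this muscle came from vessels or from gut was not tested. The intervals of pericyte-like and smooth muscle-like nuclei overlapped in the cKO-labelled library and not in the control, where that of smooth muscle-like nuclei overlapped the adipocyte-like one. Relative to adipocyte-like nuclei, the adipocyte markers reached 57.9% (cKO-labelled) and 35.6% (control) in pericyte-like nuclei, where Ednra reached 218% (cKO-labelled) and 217% (control). In smooth muscle-like nuclei the markers reached 48.3% (cKO-labelled) and 18.8% (control), where Ednra reached 178% (cKO-labelled) and 114% (control). With the adipocyte profile subtracted and the rest scaled up as for Edn1, Ednra was at 599.7 CPM (cKO-labelled) and 425 CPM (control) in pericyte-like nuclei. In smooth muscle-like nuclei it was then at 394 CPM (cKO-labelled) and 178 CPM (control). The scaling up was larger in the cKO-labelled library, where the markers reached a higher percent. That widened the gap between the libraries in both classes, so these values do not compare the libraries.

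Adipocyte-like nuclei held 81.2% of the Ednra UMIs in the cKO-labelled library and 85.7% in the control, beside 62.7% (cKO-labelled) and 62.6% (control) of the UMIs of all genes. The level was 157 CPM (154 to 161) in the cKO-labelled library and 151 CPM (148 to 154) in the control. A UMI was seen in 65.9% of the cKO-labelled and 63.3% of the control nuclei, and after thinning in 12.7% (cKO-labelled) and 12.8% (control), against 7.14% (cKO-labelled) and 4.51% (control) of thinned T cell-like nuclei. The difference between libraries in the whole class was small, with a log2 ratio of 0.06 (0.01 to 0.11), and it varied with the cluster. It was 0.50 (0.42 to 0.59) within cluster 0, at 220.1 CPM in the cKO-labelled library and 155 CPM in the control, 0.17 (0.08 to 0.27) in cluster 2, -0.03 (-0.12 to 0.06) in cluster 1 and -0.10 (-0.33 to 0.13) in cluster 9. Cluster 0, led by Nnat, Folh1 and Tshr, held 541 nuclei of the cKO-labelled library and 2272 of the control. The minus-strand span of Ednra lies wholly within 4933431K23Rik, a transcript on the opposite strand that had 16.5 CPM in cKO-labelled and 12.2 CPM in control adipocyte-like nuclei. The sources used here do not say whether counting used strand, so reads of this pair may not be separable.

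In vascular endothelial-like nuclei Ednra was at 63.8 CPM (52.8 to 76.4) in the cKO-labelled library and 33.6 CPM (27.2 to 41.2) in the control, a log2 ratio of 0.92 (0.52 to 1.33). Those levels were 40.5% (cKO-labelled) and 22.3% (control) of the adipocyte level of Ednra, while the 8 adipocyte markers in the same nuclei ranged from 38.4% to 66.7% of their own adipocyte level in the cKO-labelled library and from 22.9% to 47.6% in the control. After subtraction of the adipocyte profile Ednra was below 0 in both, at -17.6 CPM in the cKO-labelled library and -10.4 CPM in the control. T cell-like nuclei, which are not known for this receptor, showed the same size of difference, at 88.7 CPM (cKO-labelled) and 44.0 CPM (control), a log2 ratio of 1.01 (0.59 to 1.44), and so did B cell-like nuclei, at 77.8 CPM (cKO-labelled) and 39.5 CPM (control), a log2 ratio of 0.98 (0.50 to 1.47). An Ednra UMI was seen in 17.5% (cKO-labelled) and 14.8% (control) of vascular endothelial-like nuclei and in 26.1% (cKO-labelled) and 13.5% (control) of T cell-like nuclei. After thinning, 3.24% (cKO-labelled) and 3.39% (control) of vascular endothelial-like nuclei had one, against 2.76% (cKO-labelled) and 3.83% (control) of B cell-like nuclei and the higher T cell-like shares of 7.14% (cKO-labelled) and 4.51% (control). The part of adipocyte RNA in the endothelial difference was not tested.

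**Figure D2:**
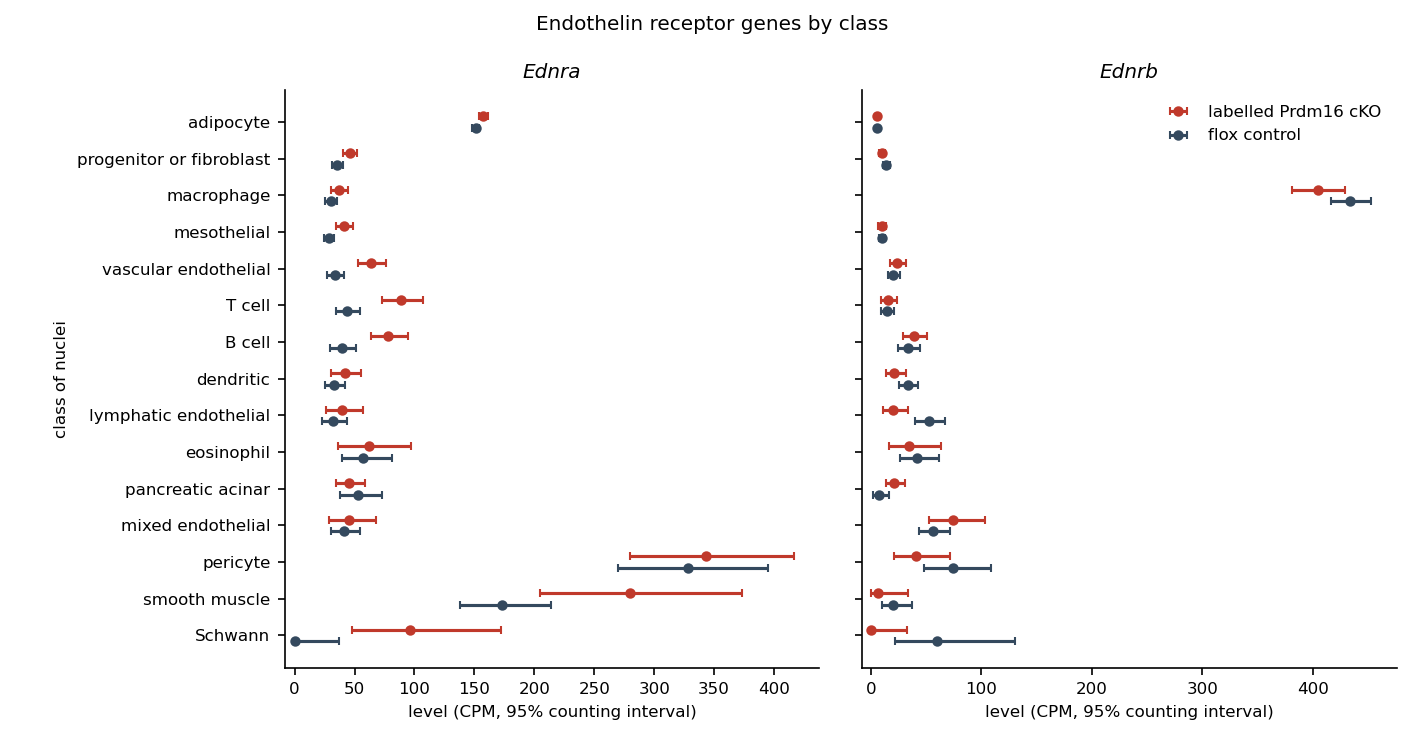
Levels of the 2 endothelin receptor genes Ednra and Ednrb by class (horizontal axis: CPM from 0, with a point per library and bars for exact 95% Poisson intervals), in the cKO-labelled library and the flox control. Ednra was highest in pericyte-like nuclei (343 CPM cKO-labelled, 328 CPM control) and Ednrb in macrophage-like nuclei (405 CPM cKO-labelled, 434 CPM control).

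Ednrb, the B receptor that takes up endothelin and in endothelium is coupled to nitric oxide release (chromosome 14, 103814625 to 103844402, minus strand), was highest in macrophage-like nuclei. Macrophage-like nuclei had 405 CPM (381 to 429) among cKO-labelled nuclei and 434 CPM (416 to 453) among control nuclei, and they held 64.1% (cKO-labelled) and 69.1% (control) of all Ednrb UMIs. The intervals overlapped, and the log2 ratio was -0.10 (-0.21 to 0.00). A UMI was seen in 55.3% of 557 cKO-labelled and 54.7% of 993 control macrophage-like nuclei, and after thinning in 26.7% (cKO-labelled) and 25.3% (control). Of T cell-like nuclei, 7.96% (cKO-labelled) and 6.63% (control) had one, and after thinning 1.79% (cKO-labelled) and 1.59% (control). Macrophage-like nuclei had median depths of 4316 UMIs (cKO-labelled) and 4570 UMIs (control). Both macrophage-like clusters carried it. The main cluster 3, led by Cd163, F13a1 and Mrc1, had 395 CPM in the cKO-labelled library and 422 CPM in the control. The small cluster 25, led by Prg4, Padi4 and Msr1 with 26 nuclei in each library, had 527 CPM (429 to 641) in the cKO-labelled library and 691 CPM (585 to 811) in the control.

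Outside macrophage-like nuclei Ednrb was much lower. Mixed endothelial nuclei had 74.7 CPM (52.9 to 103) in the cKO-labelled library and 56.0 CPM (43.3 to 71.2) in the control, and pericyte-like nuclei had 40.8 CPM (21.1 to 71.3) in the cKO-labelled library and 73.8 CPM (47.8 to 109) in the control. The order of these classes turned between the libraries, within overlapping intervals, and in the control Schwann-like nuclei, at 59.8 CPM (22 to 130.3; 26 nuclei), stood between them. In mixed endothelial nuclei Ednrb was at 18.5% (cKO-labelled) and 12.9% (control) of its macrophage level, where the 9 macrophage markers together stood at 3.59% (cKO-labelled) and 4.33% (control) and single ones reached 24.1% (cKO-labelled) and 20.5% (control). In the cKO-labelled library 1 nucleus held 19 of the 38 UMIs, and without it the level was 38.8 CPM. In pericyte-like nuclei it was at 10.1% (cKO-labelled) and 17.0% (control), with the markers together at 4.89% (cKO-labelled) and 7.09% (control) and single ones up to 87.8% (cKO-labelled) and 30.9% (control). In adipocyte-like nuclei Ednrb was at 5.10 CPM in the cKO-labelled library and 5.48 CPM in the control, 1.26% of its macrophage level in both, where single macrophage markers ranged from 0.930% to 35.1% (cKO-labelled) and from 1.10% to 36.2% (control). In vascular endothelial-like nuclei it was at 23.4 CPM (17.0 to 31.6) in the cKO-labelled library and 20.3 CPM (15.3 to 26.3) in the control. These were 5.79% (cKO-labelled) and 4.67% (control) of its macrophage level, where the macrophage markers together stood at 6.53% (cKO-labelled) and 6.51% (control). Lymphatic endothelial-like nuclei had 19.8 CPM (14 UMIs, 10.8 to 33.1) in the cKO-labelled library and 52.1 CPM (62 UMIs, 40.0 to 66.8) in the control, a log2 ratio of -1.40 (-2.35 to -0.55). Few nuclei made up this difference: 8 of 114 cKO-labelled and 25 of 222 control nuclei had a UMI, the top 5 nuclei held 78.6% (cKO-labelled) and 62.9% (control) of the UMIs, and 1 control nucleus held 24. Without the nucleus with most UMIs in each library, the levels were 11.4 CPM (cKO-labelled) and 32.5 CPM (control). Macrophage markers in this class stood at 8.64% (cKO-labelled) and 6.97% (control) of their macrophage level, beside 4.88% (cKO-labelled) and 12.0% (control) for Ednrb. Dendritic-like nuclei had 21.3 CPM (13.5 to 32.0) in the cKO-labelled library and 33.1 CPM (25.5 to 42.2) in the control, a log2 ratio of -0.63 with an interval that crossed 0 (-1.39 to 0.07). There Ednrb stood at 5.27% (cKO-labelled) and 7.62% (control) of its macrophage level, beside the macrophage markers together at 19.4% (cKO-labelled) and 24.0% (control).

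Nos3, the endothelial nitric oxide synthase (chromosome 5, 24364810 to 24384474, plus strand), was highest in vascular endothelial-like nuclei, at 189 CPM (169.8 to 210.2) in the cKO-labelled library and 219.6 CPM (202 to 238) in the control, a log2 ratio of -0.22 (-0.41 to -0.02). The arterial-led cluster 22 stood above the others, at 494 CPM (424 to 572) in the cKO-labelled library and 378 CPM (339.8 to 419) in the control. Cluster 20 had 198 CPM (cKO-labelled) and 235 CPM (control), and the capillary-led cluster 13 had 81.6 CPM (cKO-labelled) and 73.6 CPM (control). The direction thus differed between the class and its arterial-led cluster, where the log2 ratio was 0.38 (0.12 to 0.65). The class direction also turned with the adipocyte profile subtracted and the rest scaled up, to 299 CPM (cKO-labelled) and 284 CPM (control), a log2 ratio of 0.07. Mixed endothelial nuclei had 142 CPM (111 to 178) in the cKO-labelled library and 179 CPM (156 to 205) in the control. These intervals overlapped those of vascular endothelial-like nuclei. Lymphatic endothelial-like nuclei had 21.2 CPM (11.8 to 34.9) in the cKO-labelled library and 26.1 CPM (17.7 to 37.0) in the control, beside T cell-like nuclei at 33.4 CPM (24.2 to 45.0) in the cKO-labelled library and 16.8 CPM (11.4 to 23.9) in the control.

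The share of nuclei with UMIs of both the ligand and the synthase was highest in the arterial-led cluster, where each alone was also detected most often. In cluster 22, an Edn1 UMI was seen in 42.0% of 50 cKO-labelled and 45.2% of 104 control nuclei, a Nos3 UMI in 74.0% (cKO-labelled) and 76.0% (control), and both in 32.0% (cKO-labelled) and 35.6% (control). In cluster 20 the shares with both were 12.3% of 65 cKO-labelled and 25.7% of 109 control nuclei, and in cluster 13 they were 3.41% of 176 cKO-labelled and 2.59% of 232 control nuclei. In lymphatic endothelial-like nuclei they were 0% of 114 cKO-labelled and 0.450% of 222 control nuclei. Median depths were 5350 UMIs (cKO-labelled) and 8090 UMIs (control) in cluster 22 and 3439 UMIs (cKO-labelled) and 3381 UMIs (control) in cluster 13, and shares of nuclei with a UMI move with depth.

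**Figure D3:**
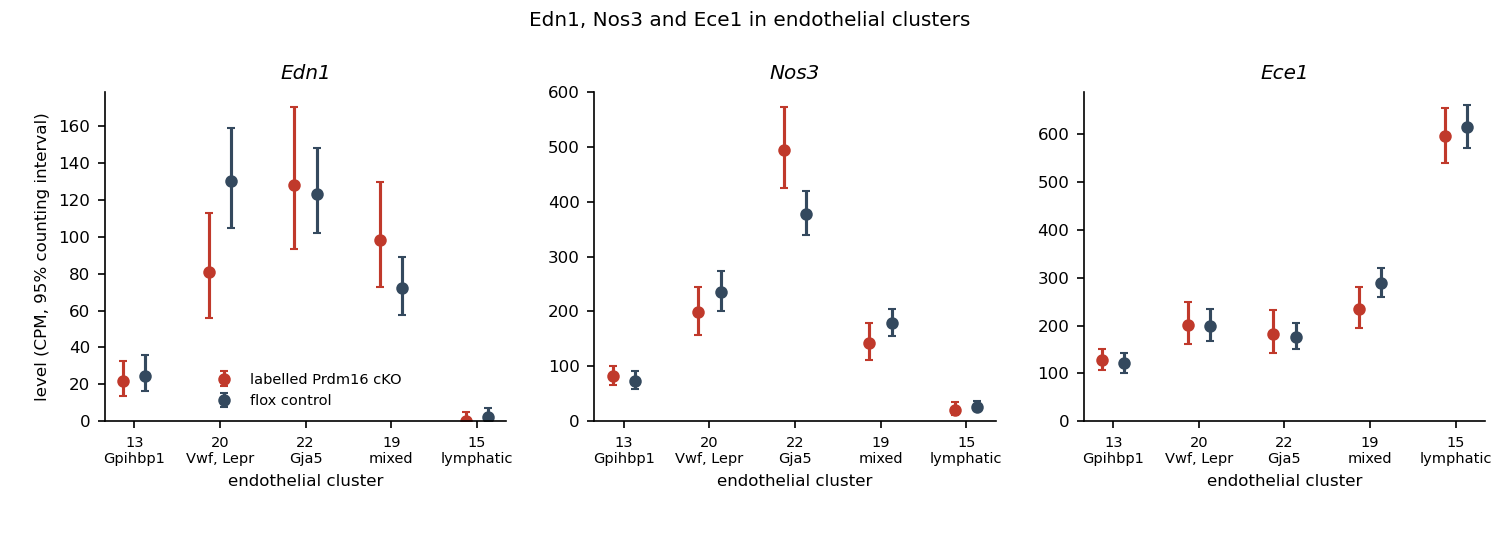
Levels of Edn1, Nos3 and Ece1 (vertical axis: CPM, bars are exact 95% Poisson intervals) in 5 endothelial clusters (horizontal axis) of the cKO-labelled library and the flox control. Nos3 peaked in cluster 22, led by Gja5 (494 CPM cKO-labelled, 378 CPM control), and Ece1 in lymphatic endothelial-like cluster 15 (597 CPM cKO-labelled, 615 CPM control), where Edn1 had 0 UMIs (cKO-labelled) and 3 UMIs (control).

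Adipocyte-like nuclei held 72.8% of the Nos3 UMIs in the cKO-labelled library and 68.6% in the control, beside the 62.7% (cKO-labelled) and 62.6% (control) they held of the UMIs of all genes. Their level was 62.7 CPM (60.2 to 65.2) in the cKO-labelled library and 47.8 CPM (46.0 to 49.6) in the control, a log2 ratio of 0.39 (0.31 to 0.47). This was 33.1% (cKO-labelled) and 21.8% (control) of the vascular endothelial-like level. The 13 vascular endothelial markers, all detected in adipocyte-like nuclei, together stood at 1.11% (cKO-labelled) and 0.940% (control) of their own endothelial level there, and each lay between 0.637% and 4.22% in the cKO-labelled library and between 0.687% and 3.66% in the control. Nos3 thus stood far above every one of those markers on this scale. A UMI was seen in 48.3% of cKO-labelled and 39.6% of control adipocyte-like nuclei, and after thinning in 6.02% (cKO-labelled) and 4.83% (control). Of T cell-like nuclei, 12.4% (cKO-labelled) and 7.96% (control) had one, and after thinning 3.12% (cKO-labelled) and 2.12% (control), while thinned B cell-like shares were 1.10% (cKO-labelled) and 0% (control). Adipocyte-like nuclei were deeper than T cell-like nuclei, with medians of 11881 UMIs (cKO-labelled) and 12099 UMIs (control).

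The adipocyte-like difference in Nos3 varied with the cluster. In cluster 0 it was at 60.1 CPM (54.6 to 66.1) in the cKO-labelled library and 39.6 CPM (37.4 to 42.0) in the control, a log2 ratio of 0.60 (0.44 to 0.76). Cluster 2, led by Fam83a, Slc1a3 and Adrb3, had 62.7 CPM (cKO-labelled) and 52.1 CPM (control), a log2 ratio of 0.27 (0.11 to 0.43). Cluster 9, led by Elovl6, Acly and Me1, had 68.7 CPM (cKO-labelled) and 59.6 CPM (control), a log2 ratio of 0.20 (-0.11 to 0.53), and cluster 1, led by Acss2, Acaca and Acly, had 61.2 CPM (cKO-labelled) and 59.1 CPM (control), a log2 ratio of 0.05 (-0.09 to 0.18). All 4 ratios were above 0, but in the lipogenic-led clusters 1 and 9 the interval held 0. Cluster 0 held 541 cKO-labelled and 2272 control nuclei, cluster 1 held 1159 cKO-labelled and 995 control, cluster 2 held 756 cKO-labelled and 1039 control, and cluster 9 held 483 cKO-labelled and 102 control. Gm15587, an antisense transcript over most of Nos3, had 3.59 CPM (cKO-labelled) and 1.86 CPM (control) in adipocyte-like nuclei, and Atg9b, which overlaps Nos3 by 294 bases on the opposite strand, had 0.538 CPM (cKO-labelled) and 0.310 CPM (control). Nos1, the neuronal synthase (chromosome 5, 117781032 to 117958840, plus strand), had 19 UMIs in the cKO-labelled library and 11 in the control, of which 9 (cKO-labelled) and 3 (control) were in adipocyte-like nuclei.

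Cbs, which makes cystathionine and hydrogen sulfide from homocysteine (chromosome 17, 31608894 to 31637238, minus strand), was highest by far in pancreatic acinar-like nuclei. Acinar-like nuclei had 152 CPM (132 to 175) in the cKO-labelled library and 125 CPM (100.3 to 154) in the control, and 49.4% (cKO-labelled) and 52.9% (control) of them had a UMI. After thinning these shares were 11.7% (cKO-labelled) and 17.2% (control). Of T cell-like nuclei 1.77% (cKO-labelled) and 1.33% (control) had one, and 0% of either library after thinning. Adipocyte-like nuclei held 76 Cbs UMIs, or 1.95 CPM (1.53 to 2.44), in the cKO-labelled library, against 55 UMIs, or 0.948 CPM (0.714 to 1.23), in the control, a log2 ratio of 1.04 (0.52 to 1.57). All 8 acinar markers were higher in the cKO-labelled adipocyte-like nuclei too, with log2 ratios from 1.63 (Cel, a lipase of pancreatic juice) to 3.11 (Cela2a, an elastase). Together they stood at 0.909% (cKO-labelled) and 0.298% (control) of their acinar level, beside 1.28% (cKO-labelled) and 0.758% (control) for Cbs. With the acinar profile subtracted on that scale, Cbs in adipocyte-like nuclei was at 0.566 CPM (cKO-labelled) and 0.577 CPM (control), a log2 ratio of -0.03. Over the whole library Cbs was at 5.86 CPM with cKO-labelled and 2.19 CPM with control nuclei, of which 180 (cKO-labelled) and 87 (control) were acinar-like.

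Cth, which cleaves cystathionine to cysteine and also releases hydrogen sulfide (chromosome 3, 157894248 to 157925077, minus strand), was highest in the same acinar-like nuclei, at 87.2 CPM (71.7 to 105) in the cKO-labelled library and 61.8 CPM (44.9 to 82.9) in the control. In adipocyte-like nuclei it was detected more often than Cbs. A Cth UMI was seen in 647 of 2939 cKO-labelled and 1056 of 4408 control nuclei, against 73 (cKO-labelled) and 52 (control) for Cbs. Of the shallower T cell-like nuclei, 13 of 226 (cKO-labelled) and 10 of 377 (control) had a Cth UMI. Adipocyte-like nuclei held 942 Cth UMIs, or 24.1 CPM (22.6 to 25.7), in the cKO-labelled library, against 1575 UMIs, or 27.1 CPM (25.8 to 28.5), in the control, a log2 ratio of -0.17 (-0.29 to -0.05). They held 72.6% of all Cth UMIs in the cKO-labelled library and 80.7% in the control, against 62.7% (cKO-labelled) and 62.6% (control) of all UMIs. Within clusters the ratio turned to 0.22 (-0.02 to 0.46) in cluster 1, 0.14 in cluster 2 and 0.79 (0.06 to 1.62) in cluster 9, against -0.13 in cluster 0, so the sign of the class value was that of cluster 0 alone. Mesothelial-like nuclei had 13 CPM (9.38 to 17.6) in the cKO-labelled library and 16.3 CPM (13.4 to 19.7) in the control. These were 54.0% (cKO-labelled) and 60.1% (control) of the adipocyte level, where adipocyte markers stood at 23.4% (cKO-labelled) and 19% (control). Progenitor or fibroblast-like nuclei had 8.14 CPM (5.91 to 10.9) in the cKO-labelled library and 3.61 CPM (2.36 to 5.28) in the control, a log2 ratio of 1.17 (0.44 to 1.93). These were 33.7% (cKO-labelled) and 13.3% (control) of the adipocyte level, where the 8 adipocyte markers ranged from 21.0% to 34.4% (cKO-labelled) and from 17.6% to 29.6% (control). With the adipocyte profile subtracted, Cth in this class was at 3.54 CPM (cKO-labelled) and -1.86 CPM (control).

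**Figure D4:**
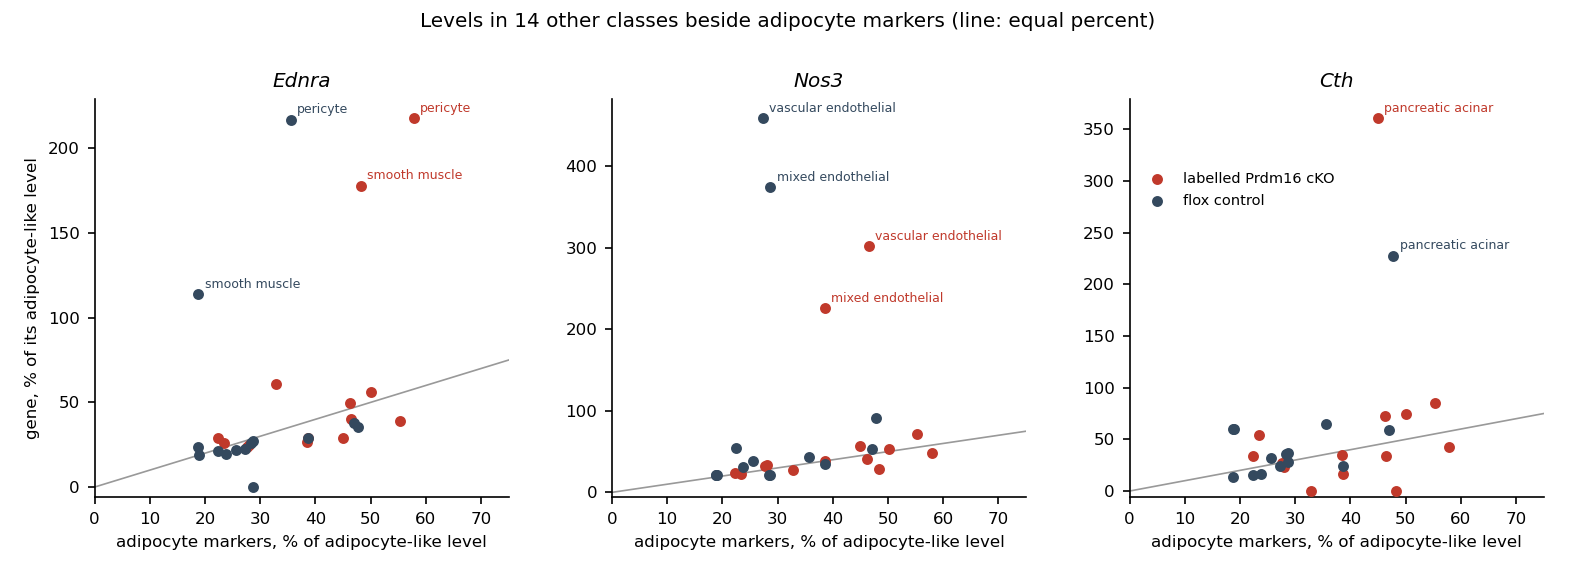
Level of Ednra, Nos3 and Cth in the 14 other classes as a percent of the gene's adipocyte-like level (vertical axis) against the summed adipocyte markers as a percent of theirs (horizontal axis), with 1 point per class and library and a line at equal percent. Ednra stood above the line in pericyte-like (218% cKO-labelled, 217% control) and smooth muscle-like nuclei (178% cKO-labelled, 114% control). Nos3 did so in vascular endothelial-like (302% cKO-labelled, 459% control) and mixed endothelial nuclei (226% cKO-labelled, 374% control). Cth did so in pancreatic acinar-like (361% cKO-labelled, 228% control) and mesothelial-like nuclei (54.0% cKO-labelled, 60.1% control). Many other classes lay nearer the line.

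Across the 10 compared classes, 7 of the 9 genes were measured in at least 1 class, with at least 20 UMIs over both libraries. Of 55 such ratios, 16 were past 1.5-fold, 13 of them higher and 3 lower in the cKO-labelled library. Ece1 was the 1 measured gene with no ratio past the fold. In adipocyte-like nuclei 7 genes were measured; 1 of these, Cbs, was higher and 0 were lower. Of 17597 genes measured there, 7.43% were past that fold upward and 5.23% downward. In vascular endothelial-like nuclei 6 were measured; 1 was higher (Ednra) and 1 lower (Edn1), where 13.7% of 11421 genes were past the fold upward and 8.33% downward. With 7 and 6 members measured, 1 gene past the fold is near that background. The median log2 ratio of the members was 0.06 in adipocyte-like and 0.08 in vascular endothelial-like nuclei, beside 0.04 for all genes in both.

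Lymphocytes held more of the ratios past the fold. In T cell-like nuclei 3 of 5 measured members were at least 1.5-fold higher and 0 lower, where 10.7% of all 10739 genes were higher and 8.79% lower. These were Ednra (1.01), Nos3 (0.99) and Cth (1.46), and the median log2 ratio was 0.99 for the members and 0.00 for all genes. In B cell-like nuclei the same 3 of 5 members were higher and 0 lower, beside 12.2% of 10230 genes higher and 8% lower. There the log2 ratios were 0.98 for Ednra, 1.32 for Nos3 and 0.85 for Cth, and the medians were 0.85 for the members and 0.03 for all genes. In T cell-like nuclei Ednra stood at 56.3% (cKO-labelled) and 29.1% (control) and Nos3 at 53.4% (cKO-labelled) and 35.2% (control) of its adipocyte level, beside the adipocyte markers at 50.1% (cKO-labelled) and 38.6% (control). Cth stood at 74.1% (cKO-labelled) and 24.0% (control), where single markers ranged from 45.4% to 70.8% (cKO-labelled) and from 30.9% to 55.3% (control). Of its 23 UMIs in cKO-labelled T cell-like nuclei, 1 nucleus held 9, and without that nucleus the level was 11.1 CPM in place of 17.9 CPM. After thinning, 0% of cKO-labelled and 0.265% of control T cell-like nuclei had a Cth UMI. The part of adipocyte RNA in these ratios was not tested.

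In the other 6 compared classes, 7 ratios were past the fold, most of them from few UMIs. Progenitor or fibroblast-like nuclei had 2 of 7 members higher and 0 lower, beside 7.84% of genes higher and 4.70% lower: Cth, given above, and Cbs, with 12 UMIs (2.22 CPM) in the cKO-labelled library and 9 UMIs (1.25 CPM) in the control, a log2 ratio of 0.83 (-0.54 to 2.26). In mesothelial-like nuclei 1 of 7 was higher and 0 lower (8.01% and 5.32% of genes), namely Cbs, with 13 UMIs (4.03 CPM) in the cKO-labelled library and 8 UMIs (1.19 CPM) in the control, a log2 ratio of 1.77 (0.38 to 3.24). There Cbs stood at 2.64% (cKO-labelled) and 0.949% (control) of its acinar level. Single acinar markers ranged from 0.980% to 3.04% (cKO-labelled) and from 0.463% to 1.15% (control). In progenitor or fibroblast-like nuclei Cbs stood at 1.46% (cKO-labelled) and 0.999% (control), with markers at 0.736% to 2.47% (cKO-labelled) and 0.372% to 0.752% (control). The part of acinar RNA in these Cbs ratios was not tested. In macrophage-like nuclei 1 of 5 was higher and 0 lower (7.98% and 5.57% of genes), namely Cth, with 18 UMIs (6.64 CPM) in the cKO-labelled library and 22 UMIs (4.40 CPM) in the control, a log2 ratio of 0.59 (-0.39 to 1.56). In eosinophil-like nuclei 1 of 4 was higher and 0 lower (14.2% and 8.79% of genes), namely Nos3, with 13 UMIs (cKO-labelled) and 14 UMIs (control), a log2 ratio of 0.83 (-0.38 to 2.02). Ednrb, given above, was the 1 member lower of 5 in dendritic-like nuclei, where 0 were higher (12.6% of genes higher and 6.90% lower), and the 1 lower of 4 in lymphatic endothelial-like nuclei, where 0 were higher (11.5% higher and 7.76% lower).

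**Figure D5:**
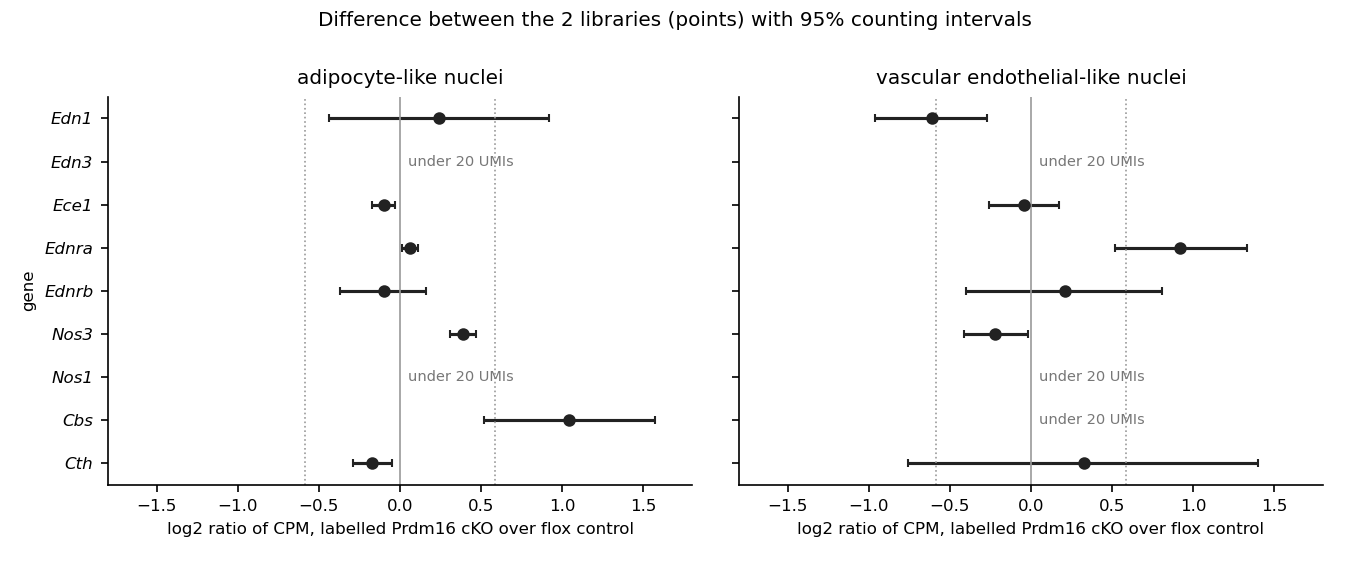
Log2 ratio of CPM, cKO-labelled over flox control (horizontal axis), for each of the 9 genes (vertical axis) in adipocyte-like and vascular endothelial-like nuclei. Bars are exact 95% intervals, dotted lines mark 1.5-fold in either direction, and genes under 20 UMIs have no point. In adipocyte-like nuclei Cbs alone lay past the fold, at 1.04, and in vascular endothelial-like nuclei Ednra lay at 0.92 and Edn1 at -0.61.

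A list of 39 further genes of the 3 pathways was counted in the same way. In adipocyte-like nuclei 35 were measured, 3 were at least 1.5-fold higher and 2 lower, with a median log2 ratio of 0.03, beside the 7.43% of all genes higher and 5.23% lower. The higher ones were Slc7a2, an arginine transporter, at 2.43 CPM (cKO-labelled) and 1.26 CPM (control), a log2 ratio of 0.95 (0.50 to 1.41), Gss, the synthetase of the last step to glutathione, at 43.3 CPM (cKO-labelled) and 24.4 CPM (control), 0.83 (0.72 to 0.93), and Arg2, an arginase that competes for the substrate of nitric oxide synthases, at 0.589 CPM (cKO-labelled) and 0.345 CPM (control), 0.77 (-0.16 to 1.71). The lower ones were Ece2, a relative of Ece1, with 4 UMIs (cKO-labelled) and 16 UMIs (control), a log2 ratio of -1.43 (-3.47 to 0.20), and Ddah1, which degrades an inhibitor of nitric oxide synthases, at 0.845 CPM (cKO-labelled) and 1.76 CPM (control), -1.06 (-1.67 to -0.48). Slc7a2 was highest in pancreatic acinar-like nuclei in the cKO-labelled library (162 CPM) and in smooth muscle-like nuclei in the control (132 CPM). Acinar markers in adipocyte-like nuclei stood at 0.909% (cKO-labelled) and 0.298% (control) of their acinar level. The part of acinar RNA in the Slc7a2 ratio was not tested. Ddah1 was highest in mixed endothelial nuclei, at 116 CPM (cKO-labelled) and 179.7 CPM (control). Vascular endothelial markers in adipocyte-like nuclei together stood at 1.11% (cKO-labelled) and 0.940% (control) of their endothelial level. The part of endothelial RNA in the Ddah1 ratio was not tested.

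In vascular endothelial-like nuclei, of 30 measured, 6 were past 1.5-fold upward and 7 downward, and the median log2 ratio was -0.08, beside the 13.7% of all genes higher and 8.33% lower. The 4 highest log2 ratios were those of Spr, of cofactor synthesis for nitric oxide synthases (1.13, -0.07 to 2.38), Mme, a protease that degrades endothelin (1.05, 0.68 to 1.42), Gss (0.98, 0.25 to 1.73) and Slc7a2 (0.74, -0.05 to 1.53). Mme was at 80.1 CPM in cKO-labelled and 38.7 CPM in control endothelial nuclei. Its highest class was adipocyte-like, at 170.1 CPM (cKO-labelled) and 139.9 CPM (control), and adipocyte markers stood at 46.5% (cKO-labelled) and 27.3% (control) in the endothelial nuclei. Gss too was highest in adipocyte-like nuclei, at 43.3 CPM (cKO-labelled) and 24.4 CPM (control). The part of adipocyte RNA in the Mme and Gss values, and of acinar RNA in the Slc7a2 value, was not tested. The 4 lowest were those of Ethe1, of sulfide oxidation (-1.58, -3.60 to 0.02), Nosip, a binding partner of Nos3 (-0.89, -1.56 to -0.25), Ass1, of arginine synthesis (-0.69, -1.70 to 0.25), and Nos1ap, an adaptor of Nos1 (-0.69, -0.86 to -0.53). Ethe1 rested on 4 UMIs (cKO-labelled) and 18 UMIs (control), while Nos1ap was at 220.3 CPM (cKO-labelled) and 356 CPM (control). Beside the adipocyte markers, the makeup of the class also differed, with 17.2% (cKO-labelled) and 23.4% (control) of its nuclei in cluster 22. The part of either in the lower ratios was not tested.

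The genes whose class pattern was most like each member were found by correlation of log2(CPM + 1) over 30 points, 15 classes in 2 libraries, which share library and depth. Among 16180 genes, Edn1 lay nearest Vwf (r = 0.868), Car8 (0.847) and Slco2a1 (0.843), and Nos3 nearest Ptprm (0.874), Rasgrf2 (0.866) and Plxna2 (0.827). Ece1 lay nearest Ppp1r2 (0.918), Stox2 (0.883) and Dmtn (0.862). Ednra lay nearest Plekhh3 (0.901), Tmem186 (0.852) and Sgta (0.848), and Ednrb nearest Hpgds (0.851), Lgmn (0.847) and Akr1a1 (0.802). Cbs lay nearest Klk1 (0.917), Lrrc7 (0.912) and Gata4 (0.907), and Cth nearest Gm46210 (0.812), Ldhd (0.807) and Ddit3 (0.801). Between members, r was 0.64 for Edn1 and Nos3, 0.56 for Cbs and Cth, and -0.27 for the receptors Ednra and Ednrb.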

How the data were processed

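Single-nucleus libraries made with the 10x 3' v3.1 kit were analysed from the deposited raw UMI counts per gene and barcode, which the authors made with Cell Ranger 6.1.2 on mm10, per the submitters' processing notes. Whether intronic reads were counted, and with which strand setting, is not given in the sources used here. Nothing in the deposited counts was normalised.

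The 9 genes and all lists were chosen with earlier results of these data known. Barcodes needed 500 UMIs and 300 genes, which all met. Those with 5% or more mitochondrial UMIs were dropped (217 cKO-labelled, 449 control). Scrublet's automatic threshold marked 0.013% and 0.052%, too few to use, so the top-scoring 0.8% per 1000 nuclei were removed as doublets (495 and 1079). Both libraries were clustered together in scanpy 1.11.5 (Python 3.11.15, leidenalg 0.10.2, igraph 0.11.9) on 2000 variable genes without the 9 members, with 30 components, 20 neighbours and Leiden resolution 1.0. A cluster took a "-like" name from at least 3 markers of a list, present in 5% of its nuclei at 2 times the mean of the rest. The mixed endothelial rule was added after the data were seen. Names rebuilt in this way may differ from any other account of these nuclei.

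UMIs were summed per class and library and scaled to CPM of the class total, with exact Poisson intervals and, for ratios, exact conditional binomial intervals (scipy 1.17.1, numpy 2.4.6, pandas 2.3.3). Shares have exact Clopper-Pearson intervals in the result tables. A share from 0 nuclei is bounded by 3 nuclei of the total. A gene was measured in a class with at least 20 UMIs over both libraries, and was past the fold at 1.5. Classes of 20 to 99 nuclei in a library got levels but no comparison. Of the pathway lists, up to 4 genes past the fold in each direction were named, by size. For thinning, nuclei under 1000 UMIs were left out, 13 cKO-labelled and 3 control nuclei of the vascular endothelial-like class, 2 and 0 of the T cell-like class and 1 and 0 of the adipocyte-like class. Alternatives were another scaling, the mean over nuclei, thinning, no UMI minimum, doublets kept, other resolutions, each library clustered alone, members allowed as variable genes, no mitochondrial limit and subtraction of free RNA, and 4 more chosen after the data were seen. In the adipocyte and acinar subtractions, the profile was taken out at the percent that its markers reached. The rest was then scaled up to the full class total. This raised all genes of a class by the same factor, a larger one where the markers reached a higher percent. Gene positions are those of GENCODE M21. The interval code was tested on simulated data. Figures were drawn with matplotlib 3.10.9.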

Additional observations from a re-analysis of the deposited data

How the results depend on the processing

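In adipocyte-like and vascular endothelial-like nuclei the counts of members past 1.5-fold rest on 1 gene each. In vascular endothelial-like nuclei the 1 gene higher (Ednra) became 0 with the mean of CPM over nuclei, after thinning to 1000 UMIs, with doublets kept, and within clusters 20 and 22, and became 2 (Ednra and Cbs) with no UMI minimum; with the adipocyte profile subtracted the 1 gene was Ednrb. The 1 gene lower (Edn1) became 0 with doublets kept, with no mitochondrial limit, with the adipocyte profile subtracted, with the mixed endothelial cluster added, and within clusters 13 and 22, and was Nos3 after thinning. In adipocyte-like nuclei the 1 gene higher (Cbs) became 2 with no minimum (Nos1 and Cbs), with 10% of the library profile subtracted (Edn1 and Cbs), within cluster 0 (Nos3 and Cbs) and within cluster 1 (Edn1 and Cbs), and 0 with the acinar profile subtracted, and was Ednrb after thinning and Cth within cluster 9; the 0 lower became 1 (Edn3) with no minimum. Of the log2 ratios, Ednra in vascular endothelial-like nuclei turned to -0.16 after thinning and within cluster 20, Edn1 there to 0.05 within cluster 22, Cbs in adipocyte-like nuclei to -0.03 with the acinar profile subtracted, and Ednrb in dendritic-like nuclei to 1.52 with each library clustered on its own; apart from the subtraction, whose construction takes acinar RNA out, the cause was not tested. Under the alternatives, 543 single-gene log2 ratios stayed within the counting interval of the value reported, 60 lay outside it, and the 5 just given, of genes past 1.5-fold, changed sign. The settings with single clusters, the acinar subtraction and the mixed cluster were chosen after seeing the data. No paired analysis was possible because each genotype has 1 library, and for the same reason no library could be left out. Depth limits Edn3 and Nos1, and any class under 100 nuclei.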

Other observations

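The levels of 5 genes of the cyclic GMP response, downstream of nitric oxide, were looked up after their values were seen. Gucy1a1 and Gucy1a2, alpha subunits of the nitric oxide receptor guanylate cyclase, were highest in pericyte-like nuclei, at 408 CPM in the cKO-labelled library and 469 CPM in the control for Gucy1a1 and at 748 CPM (cKO-labelled) and 895 CPM (control) for Gucy1a2. Prkg1, the cyclic GMP-dependent kinase, was highest in smooth muscle-like nuclei, at 4707 CPM (cKO-labelled) and 7382 CPM (control). Pde5a, which degrades cyclic GMP, was highest in pericyte-like nuclei in the cKO-labelled library (153 CPM) and in smooth muscle-like nuclei in the control (336 CPM). Gucy1b1, the beta subunit, was highest in pericyte-like nuclei in the cKO-labelled library (319.6 CPM) but in lymphatic endothelial-like nuclei in the control (345 CPM), and lymphatic endothelial-like nuclei of the cKO-labelled library had 305 CPM. Cdo1, which oxidises cysteine, the product of Cth, was highest in adipocyte-like nuclei, at 765 CPM (cKO-labelled) and 812 CPM (control), as was Csad of taurine synthesis, at 259 CPM (cKO-labelled) and 369 CPM (control). Edn2, the remaining endothelin ligand, had 0 UMIs in the cKO-labelled library and 9 in the control.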
